A study of Mus musculus with 126 samples.

Results

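The 10 genes Col1a1, Col1a2, Col3a1, Dcn, Mmp2, Vcam1, Lgals1, Twist1, Il33 and Crym form a mesenchymal set, chosen from 48490 gene identifiers with earlier results of these data known. For every cell the number of these genes at 10 FPKM or more was counted, FPKM being an abundance divided by transcript length and by the number of fragments mapped in the cell. The cells were then divided by genotype label, by Epcam at 1 FPKM or more and by Foxi1 at 10 FPKM or more. Because the set was chosen on these values, the counts below describe the cells and carry no test. The study took 126 single cells from mouse endolymphatic sacs at E14.5 (embryonic age in days) and made complementary DNA by Smart-seq2, a plate-based protocol for full-length transcripts. The labels assign 33 cells to wild-type mice and 93 to mice heterozygous for Sox9Y440X, an allele named for a premature stop codon in the transcription factor gene Sox9. They name no animal, litter, strain or plate, so each genotype was treated as 1 sample of cells and no p-value was computed.

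Loose mesenchyme surrounds the epithelial tube of the endolymphatic sac, an outpocketing of the inner ear that takes up and turns over endolymph. Fibroblasts of such mesenchyme lay down fibrils of collagens I and III, which small proteoglycans such as decorin coat and metalloproteinases remodel, whereas epithelial cells are held together by Epcam, cadherins and claudins. Within the sac epithelium, the forkhead factor Foxi1 marks mitochondria-rich cells that carry the vacuolar proton pump and the anion exchanger pendrin.

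Epcam separated the cells without intermediate values: it was listed at 0 in 13 cells and at 53.1 FPKM or more in the other 113. Of the 13 Epcam-low cells, 12 were mutant and 1 was wild type. Foxi1 was at 28.2 FPKM or more in 16 cells, 5 wild type and 11 mutant, and at 0.989 FPKM or less in all others. All 16 had Epcam, which left 97 cells with Epcam and little Foxi1, 27 wild type and 70 mutant. The number of genes listed above 0, the only stand-in for depth, had a median of 5329 in wild-type cells (range 2189 to 6493) and 4423 in mutant cells (2035 to 9358). The genotypes also differed in the prefix of the cell titles, since P9 opens the titles of the 93 mutant cells and of 1 wild-type cell, and P10 those of the other 32. They differed in sex-linked transcripts as well, with a Y-linked gene detected (1 FPKM) in 32 of the 33 wild-type and 4 of the 93 mutant cells, and Xist in 0 and 81. Genotype, sex and title prefix therefore cannot be told apart in any comparison of genotypes.

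The set was concentrated in the Epcam-low cells. These held a median of 8 of the 10 genes at 10 FPKM or more (mean 5.92 ± 3.71, SD over 13 cells, range 0 to 10). The 113 cells with Epcam held a median of 0 (mean 0.681 ± 0.984, range 0 to 7), and the 16 Foxi1 cells among them a median of 1 (range 0 to 3). At 5 or more of the 10 genes stood 8 of 13 Epcam-low cells, or 61.5% (exact binomial 95% interval 31.6 to 86.1%), against 1 of 113 cells with Epcam, or 0.885% (0.0224 to 4.83%). None of the 16 Foxi1 cells reached 5 genes, which allows a share of up to 18.75%. Intervals here and below describe counting error alone, since the spread between animals is unknown.

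**Figure D1:**
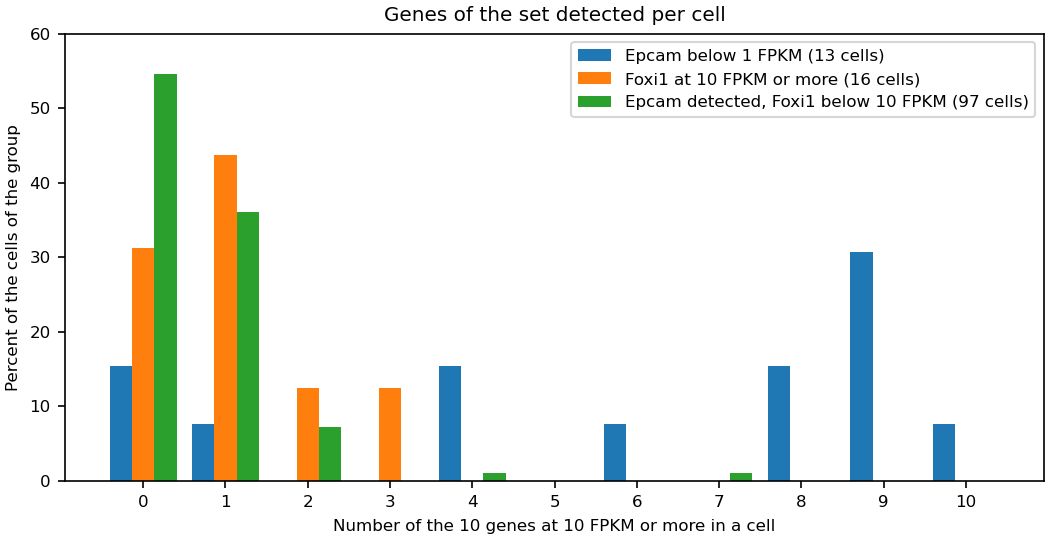
Percent of the cells of each group (vertical axis) against the number of the 10 genes at 10 FPKM or more in a cell (horizontal axis), for 13 Epcam-low cells, 16 Foxi1 cells and 97 other cells with Epcam. The Epcam-low cells spread from 0 to 10 genes with 8 cells at 6 or more, whereas the Foxi1 cells end at 3 and only 1 other cell with Epcam passes 4.

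The limit of 5 genes fell in a gap. No cell held exactly 5, and 3 cells held 4, namely mutant cells 2, 23 and 81. The 9 cells above the limit were mutant cell 16 with all 10 genes, mutant cells 10, 51, 57 and 65 with 9, mutant cells 22 and 26 with 8, wild-type cell 1 with 7 and wild-type cell 7 with 6. By genotype these were 2 of 33 wild types, or 6.06% (0.743 to 20.2%), and 7 of 93 mutants, or 7.53% (3.08 to 14.9%), shares whose intervals overlap. At the lower end, 60 of the 126 cells had none of the 10 genes and 43 had 1. For 4 genes no value lay between 0.28 and 19 FPKM, for Dcn 2 cells lay between 5 and 10 FPKM, and the other 5 genes had values on either side of the level. The values just below and just above it were 0.078 and 49.6 FPKM for Col3a1, 0.0644 and 26.3 for Mmp2, 0.28 and 23.6 for Vcam1, 0 and 19.6 for Crym and 9.33 and 92.9 for Dcn. They were 8.004 and 10.8 FPKM for Col1a1, 8.16 and 10.1 for Col1a2, 9.61 and 10.9 for Lgals1, 8.999 and 12.8 for Il33 and 8.60 and 12.6 for Twist1.

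**Figure D2:**
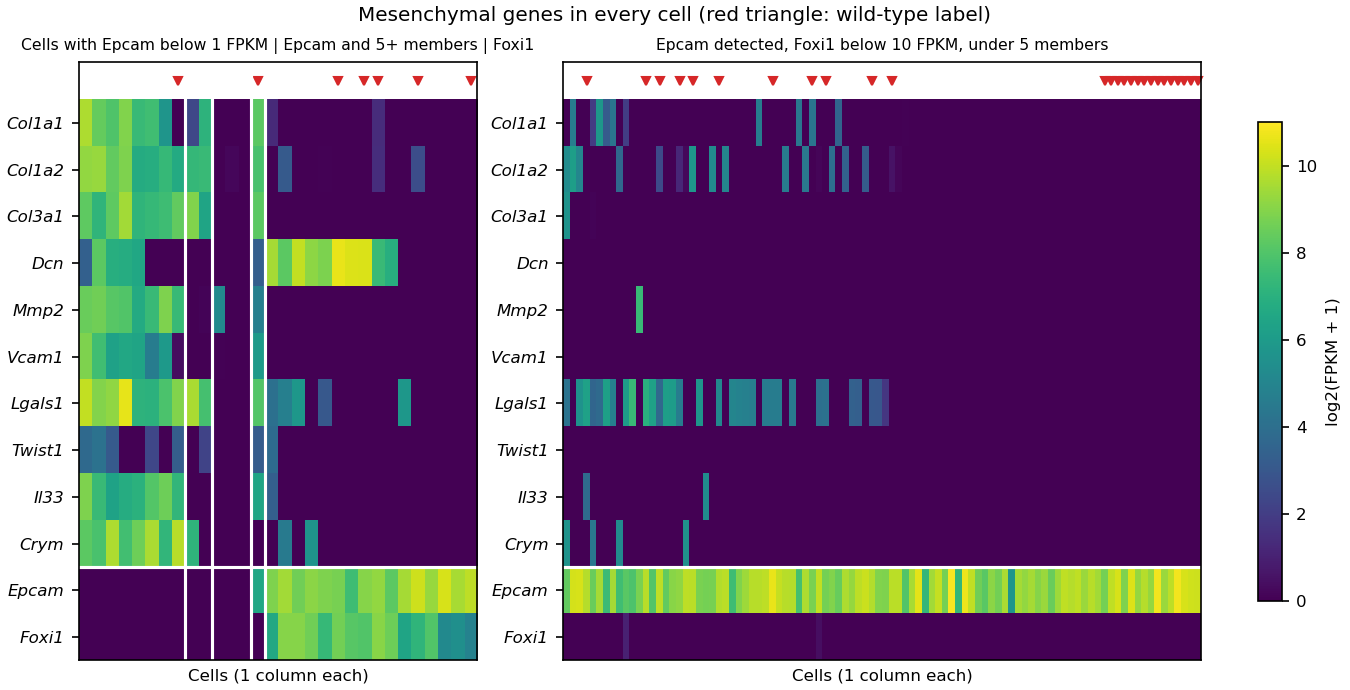
Level of each gene of the set, Epcam and Foxi1 (rows) in every cell (columns), as log2(FPKM + 1) on the colour scale; the left panel holds the 13 Epcam-low cells, wild-type cell 1 and the 16 Foxi1 cells, divided by white lines, and the right panel the other 96 cells. Red triangles mark wild-type labels. The first 8 columns hold nearly the whole set, Dcn is high in 10 Foxi1 cells, 6 of them with no other gene of the set at 10 FPKM, and the right panel shows scattered Lgals1 and type I collagen.

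The label mesenchymal was checked against markers of the cell types that a dissected sac could hold. In the 8 Epcam-low cells with 5 or more genes of the set, between 4 and 9 of 11 mesenchyme and fibroblast markers were at 10 FPKM or more (median 7), although 5 of these markers belong to the set itself. Of the 6 that do not, the keratan sulphate proteoglycan Lum was at this level in 6 of the 8 cells, the platelet-derived growth factor receptor Pdgfra in 5, and the homeobox factor Prrx1, the matrix protein Postn and Col6a3 in 4 each, while Twist2 was in 3. Epithelial markers were nearly undetected: 9 of 11, among them Cdh1 and Cldn3, were listed at 0 in all 8 cells. Epcam is 1 of these 9, but the cells were selected for its absence, so its value is no check of the label. The exceptions were Krt8 at 46.5 and Krt18 at 44.7 FPKM in mutant cell 65 and Krt8 at 113.5 FPKM in mutant cell 26. No macrophage, erythroid or melanocyte marker reached 10 FPKM in these cells, and of 9 endothelial markers only Tek did, at 21.2 FPKM in wild-type cell 7. Single glial and neuronal markers were found in 3 cells, Ngfr at 39.2 FPKM in mutant cell 26 and Stmn2 at 44.1 and 46.03 FPKM in mutant cells 51 and 22. The 8 cells did share 2 of 7 cartilage markers. The type II collagen gene Col2a1 stood at 26.9 to 408 FPKM (median 184) and Col9a1 at 11.97 to 404.5 FPKM (median 222), while the cartilage proteoglycan Acan and the matrilin Matn1 were listed at 0 in all 8.

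**Figure D3:**
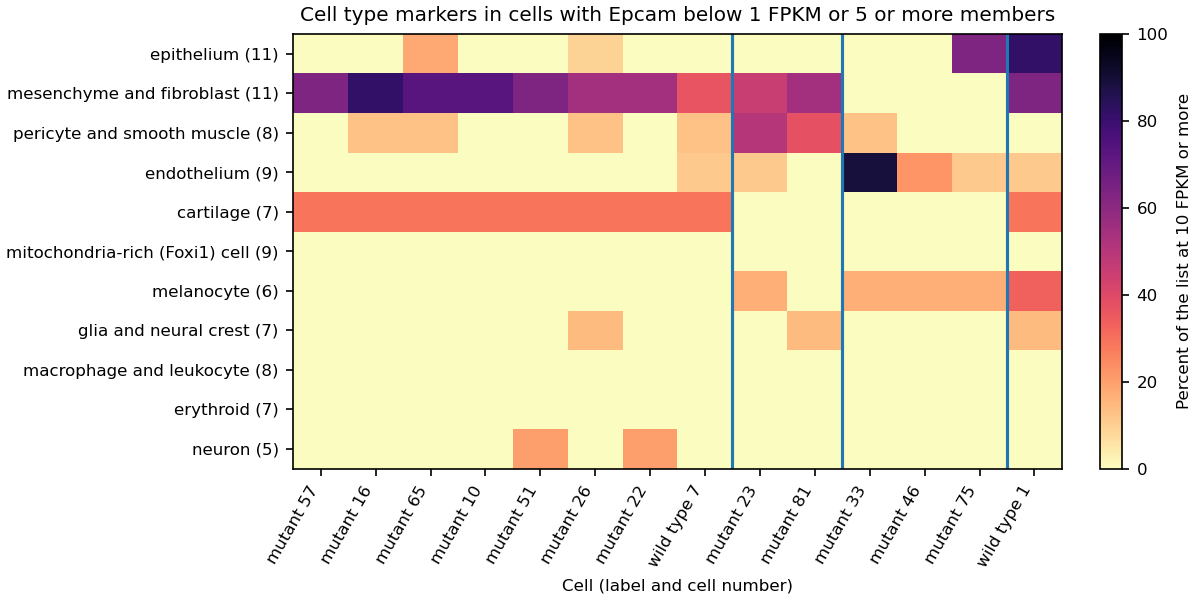
Percent of each cell type's marker list (rows, list size in brackets) at 10 FPKM or more in single cells (columns, label and cell number), for the 8 Epcam-low cells with 5 or more genes of the set, the 2 with 4, the 3 with 0 or 1, and wild-type cell 1 at the right. The first 8 cells show the mesenchyme list with 2 cartilage markers each, mutant cell 33 shows 8 of 9 endothelial markers, and wild-type cell 1 shows 9 of 11 epithelial markers beside 7 of 11 mesenchyme markers.

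Col1a1 and Col1a2 encode the chains that combine in the triple helix of type I collagen, and Col3a1 encodes the chain of type III collagen, which co-assembles with it in soft tissue. Col3a1 was at 10 FPKM or more in 12 cells, 10 of them Epcam-low. In the 8 Epcam-low cells with 5 or more genes it measured 710 FPKM in mutant cell 10 and 329 in wild-type cell 7. Col3a1 stood at 304 FPKM in mutant cells 57 and 65, 191 in cell 22, 163 in cell 26, 147 in cell 16 and 145 in cell 51. Its level in the 16 Foxi1 cells was 0 throughout. Col1a2 ranged from 106 to 637 FPKM (median 245) in the same 8 cells and Col1a1 from 0 to 809 FPKM (median 224). The 0 was wild-type cell 7, the only 1 of the 8 without Col1a1, where Col1a2 was lowest as well. Both chains were at 10 FPKM or more in 10 cells, and the ratio of Col1a1 to Col1a2 FPKM ran from 0.324 in mutant cell 22 to 1.74 in mutant cell 26, with a median of 0.904 and 5 of 10 cells above 1. FPKM is already divided by transcript length, so the pair was at similar levels per length, with no constant ratio from cell to cell.

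Promoter sequence was at hand for 4 of the 10 genes (Col1a2, Col3a1, Il33 and Twist1, 5 RefSeq starts in build GRCm38.p6, the patch release of mm10). The Col1a2 window is not shown because it holds annotated exon bases: it begins at base 4505368, inside the gene, which begins at base 4504814. Of the windows without exon bases, 3 are shown. They contrast 2 genes of the set that, like Col1a2, were in all 9 cells with 5 or more genes (Col3a1, Il33) with a gene that barely passed the level (Twist1). Each is the 250 bases before the start on the plus strand, at chr1:45311288-45311537 for Col3a1, chr12:33957421-33957670 for Twist1 and chr19:29924863-29925112 for Il33, read 5′ to 3′, with capitals marking TATAAA.
Col3a1: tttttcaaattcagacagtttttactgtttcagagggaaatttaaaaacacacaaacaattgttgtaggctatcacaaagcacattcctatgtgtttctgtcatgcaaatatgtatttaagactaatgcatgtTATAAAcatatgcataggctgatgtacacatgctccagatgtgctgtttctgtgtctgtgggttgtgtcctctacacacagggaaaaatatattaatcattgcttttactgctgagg
Twist1: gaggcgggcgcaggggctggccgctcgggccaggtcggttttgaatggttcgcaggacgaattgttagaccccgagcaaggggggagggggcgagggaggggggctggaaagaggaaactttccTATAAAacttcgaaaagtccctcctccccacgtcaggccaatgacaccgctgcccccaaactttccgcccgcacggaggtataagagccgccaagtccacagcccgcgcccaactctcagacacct
Il33: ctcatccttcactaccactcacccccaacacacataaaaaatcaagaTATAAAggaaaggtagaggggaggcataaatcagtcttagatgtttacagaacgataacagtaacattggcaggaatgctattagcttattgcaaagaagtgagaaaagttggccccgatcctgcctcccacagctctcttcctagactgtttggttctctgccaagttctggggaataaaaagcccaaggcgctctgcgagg
TATAAA, searched on both strands, lay 117 to 112 bases before the start in Col3a1, 126 to 121 in Twist1 and 203 to 198 in Il33, and 12.4% of the 32851 mouse promoter windows of this length held it. The second Il33 start also had it, 29 to 24 bases upstream, whereas the Col1a2 window did not. CCAAT, found in 33.9% of windows, was present before Twist1, Col1a2 and, on the minus strand, the first Il33 start, but not before Col3a1. CANNTG, the letters that basic helix-loop-helix factors such as Twist1 are known to bind, occurred 4 times before Col3a1, of which 1 adjoins TATAAA, 2 times before the second Il33 start and not in the other windows (66.2% of all windows). TATAAA thus lay before both the abundant genes and the scarce gene shown, and a match is a description, not a site.

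Mmp2, a secreted metalloproteinase that cleaves denatured collagen and basement membrane, was the most even gene of the set within the Epcam-low cells. Its SD over the 8 cells was 0.718 on the log2(FPKM + 1) scale, against 0.781 to 3.57 for the other 9. It measured 105 to 470 FPKM (median 271), lowest in mutant cell 51 and highest in mutant cell 22. Beyond them it reached the level only in wild-type cell 1 (26.3 FPKM), in mutant cell 33 (36.9 FPKM) and in 1 further cell with Epcam (173 FPKM). Il33, a nuclear cytokine of the interleukin 1 family, was likewise at the level in all 8 cells, at 79.1 to 461 FPKM (median 162). Its highest value came from mutant cell 57. Il1rl1, which encodes the receptor of Il33, was listed at 0 in all Epcam-low and all Epcam-detected cells.

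Vcam1 and Lgals1 act at the cell surface. Vcam1, an adhesion molecule bound by integrin alpha 4, was at 23.6 to 462 FPKM in 7 of the 8 cells and at 0.28 FPKM in wild-type cell 7. Only wild-type cell 1 had it elsewhere, at 61.9 FPKM. Itga4, the integrin chain that binds Vcam1, was at the level in 0 of 13 Epcam-low cells and 28 of 113 cells with Epcam. Lgals1 encodes galectin-1, a lectin for galactosides, and was the most abundant gene of the set in these cells, at 134 to 1528 FPKM (median 489). It was also the most widespread, with 42 cells at the level, 28 of them cells with Epcam and little Foxi1.

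Crym, Twist1 and Dcn were at opposite ends of the set. Crym encodes mu-crystallin, a binding protein for thyroid hormone, and measured 152 to 905 FPKM (median 342) in all 8 cells. The highest value was that of wild-type cell 7. Twist1, a basic helix-loop-helix factor of mesenchymal progenitors, was scarce even in the cells with the collagens, with 16.7 FPKM in mutant cell 16, 12.6 in cell 57, values of 8.60 or less in wild-type cell 7 and mutant cells 65 and 26, and 0 in mutant cells 10, 22 and 51. Dcn encodes decorin, the small proteoglycan that coats collagen fibrils, and was at 298 FPKM in mutant cell 16, 120 in cell 65, 110 in cell 10 and 92.9 in cell 51. It was at 9.33 FPKM in mutant cell 57 and listed at 0 in mutant cells 22 and 26 and wild-type cell 7. All 8 cells thus had Col1a2, Col3a1, Mmp2, Lgals1, Il33 and Crym at the level, 7 had Col1a1 and 7 Vcam1, 4 had Dcn and 2 had Twist1.

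The remaining 5 Epcam-low cells lacked most of the set and differed from each other. Mutant cells 23 and 81 held 4 genes each. Cell 23 had Col3a1 at 482 FPKM, Lgals1 at 780, Col1a2 at 162 and Crym at 142, and cell 81 had Col1a1 at 138, Col1a2 at 175, Col3a1 at 86.1 and Lgals1 at 214. In both, Vcam1, Il33 and Dcn were listed at 0, Mmp2 was at 0.1 FPKM or less, and Col2a1 and Col9a1 were at 0. These cells held 4 and 3 of 8 markers of pericytes and smooth muscle: the potassium channel gene Kcnj8 was at 105 and 189 FPKM, its partner Abcc9 at 124.1 and 54.4, and the receptor Pdgfrb at 161 and 42.1. Rgs5 was at 173 FPKM in cell 23 but at 3.81 in cell 81. The rest of the list went the other way in both cells: Acta2 and Myh11 were listed at 0, and Cspg4 and Notch3 were below 10 FPKM. The 8 cells above had 0 or 1 of these 8 markers, and Kcnj8 was listed at 0 in all of them. Mutant cell 33, with Mmp2 alone, had 8 of 9 endothelial markers, led by Egfl7 at 508 and Emcn at 490 FPKM. Mutant cell 75 had none of the set but 7 of 11 epithelial markers, with Krt8 at 404 FPKM and Cdh1 at 62.5 FPKM, so that Epcam alone put it among the Epcam-low cells. Mutant cell 46 also had none, and its FPKM summed to 60901.7, the lowest of all cells, over 2477 listed genes.

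Wild-type cell 1 was the only cell with Epcam (92.6 FPKM) that held 5 or more genes of the set. Its Col1a1 was at 300.2 FPKM, Col3a1 at 297, Lgals1 at 265.5, Col1a2 at 230, Il33 at 86.7, Vcam1 at 61.9 and Mmp2 at 26.3, all within or below the range of the 8 Epcam-low cells, and Crym was at 0. It listed 6493 genes, the most of any wild-type cell, and held 9 of 11 epithelial markers, among them Krt18 at 398 FPKM, with Sox10 at 36.2 FPKM. Wild-type cell 7 also passed 6000 listed genes, at 6417. Without the cells above 6000 listed genes, 0% of wild-type cells and 0% of cells with Epcam held 5 or more genes, so both wild-type cells of this kind rest on libraries with many listed genes. Whether either well held more than 1 cell was not tested.

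Outside these cells, single genes of the set appeared in the epithelium. Among the 96 cells with Epcam, little Foxi1 and under 5 genes of the set, Lgals1 was at 10 FPKM or more in 27 (28.1%, interval 19.4 to 38.2%), at 10.9 to 176 FPKM with a median of 27.1. The share was 26.9% in wild type, 7 of 26 (11.6 to 47.8%), and 28.6% in mutants, 20 of 70 (18.4 to 40.6%). Col1a2 was at the level in 11 cells (11.46%, 5.86 to 19.6%), at 10.1 to 70.2 FPKM, and Col1a1 in 7 (7.29%, 2.98 to 14.45%), at 10.8 to 56.2 FPKM. All Col1a2 values lay below the 106 FPKM of the lowest of the 8 Epcam-low cells, whereas the ranges overlapped for Lgals1 and, through mutant cell 22 and wild-type cell 7, for Col1a1. By genotype, Col1a2 was at the level in 3.85% of wild-type cells, 1 of 26 (0.0973 to 19.6%), and in 14.3% of mutant cells, 10 of 70 (7.07 to 24.7%), and the intervals overlap. Crym was at the level in 4 of the 96 cells, all mutant, Il33 in 2, and Col3a1 and Mmp2 in 1 each. Vcam1, Twist1 and Dcn were at the level in none, which allows a share of up to 3.125%. Mutant cell 2 was the only one of these with 4 genes, with Col3a1 at 49.6, Crym at 48.7, Col1a2 at 39.2 and Lgals1 at 17.4 FPKM. It had Epcam at 329 FPKM and 10 of 11 epithelial markers at 10 FPKM or more, with Krt7 below at 5.52 FPKM.

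Dcn departed from the rest of the set, and the split by Foxi1 was chosen with this known. Of the 16 Foxi1 cells, 10 had it at 10 FPKM or more (62.5%, interval 35.4 to 84.8%). The 3 wild-type cells among them measured 1575 (cell 32), 1333 (cell 14) and 176.5 FPKM (cell 27). The 7 mutant cells measured 1363 (cell 47), 1027 (cell 83), 729 (cell 66), 559 (cell 30), 450 (cell 44), 297 (cell 82) and 117 FPKM (cell 63), and the ranges of the genotypes overlap. The other 2 wild-type and 4 mutant Foxi1 cells were listed at 0. In the 97 other cells with Epcam, 0 reached 10 FPKM, which allows up to 3.09%, and the single value above 0 was the 8.73 FPKM of wild-type cell 1. In the Epcam-low cells, 4 of 13 had Dcn at 92.9 to 298 FPKM (median 115), against a median of 644 in the 10 Foxi1 cells. Foxi1 cells held 92.3% of all Dcn FPKM in the table, a share not adjusted for the FPKM sum of each cell. That sum was 3.52e+06 in mutant cell 66 and 1.99e+06 in mutant cell 82, against a median of 462792 over all cells.

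**Figure D4:**
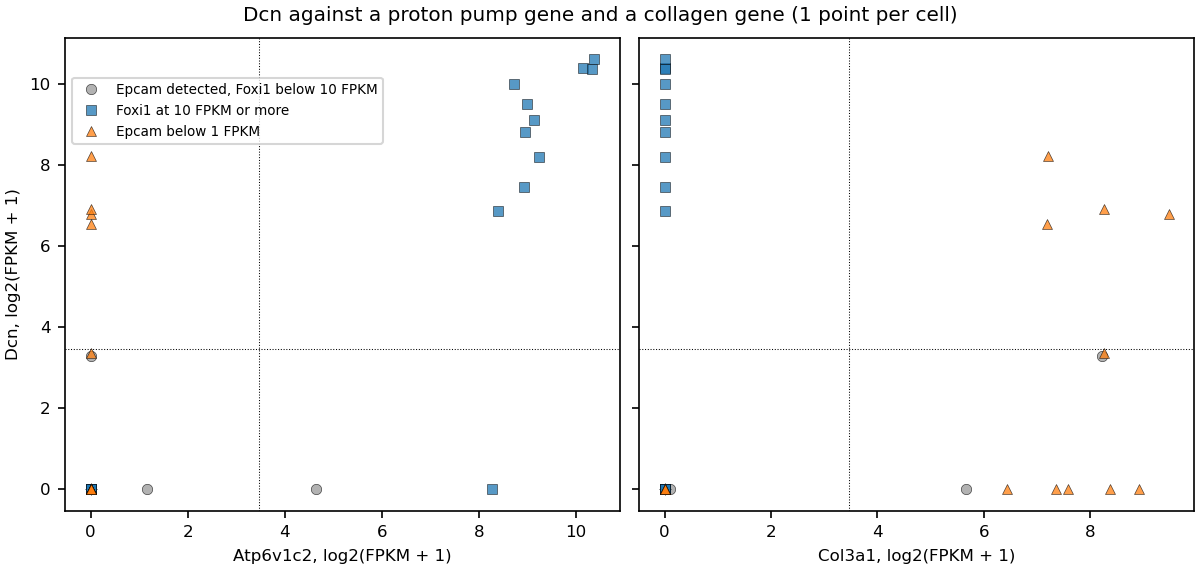
Dcn against the proton pump gene Atp6v1c2 (left) and against Col3a1 (right), all as log2(FPKM + 1), 1 point per cell, with dotted lines at 10 FPKM; symbols mark Epcam-low cells, Foxi1 cells and other cells with Epcam. Dcn is high in 10 Foxi1 cells with Atp6v1c2 and no Col3a1, and in 4 Epcam-low cells with Col3a1 and no Atp6v1c2.

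Within the Foxi1 cells, Dcn went with the other genes of mitochondria-rich cells. All 10 Foxi1 cells with Dcn also had Atp6v1c2 and Atp6v0d2, subunits of the vacuolar proton pump, at 333 to 1328 FPKM (median 535) and at 65.7 to 570 FPKM (median 275). Of the 6 Foxi1 cells without Dcn, mutant cell 1 alone had either, with 307 and 333 FPKM. The anion exchanger gene Slc26a4, which encodes pendrin, was at the level in 8 of 10 cells with Dcn and 1 of 6 without, and the exchanger Slc4a9 in 7 of 10 and 0 of 6. Cells with Dcn held 4 to 9 of the 9 markers of mitochondria-rich cells (median 7) and cells without it 1 to 6 (median 1). These counts include Foxi1 itself, which selected the cells, so each cell holds at least 1 marker by selection. Foxi1 itself measured 97.5 to 522 FPKM (median 384) in the former and 28.2 to 254 FPKM (median 63.4) in the latter, and Epcam 194 to 719 FPKM (median 468.5) against 631 to 1288 FPKM (median 850), and both ranges overlap. Listed genes had medians of 5720 and 4778 in these groups, and the part of depth in the difference was not tested; among cells with 3000 to 5000 listed genes, 2 of 5 Foxi1 cells had Dcn. Over the whole series, 12 cells had Atp6v1c2 at 10 FPKM or more and 10 of them had Dcn. Of the 10 Foxi1 cells with Dcn, 2 mutant-labelled cells carried a Y-linked transcript, cells 47 and 82; without such cells 8 of 14 Foxi1 cells had Dcn.

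Most other genes of the set did not accompany Dcn in Foxi1 cells. Col1a1, Col1a2, Col3a1, Mmp2, Vcam1 and Il33 reached 10 FPKM in 0 of the 16. Lgals1 did so in 4 (15.4 to 55.5 FPKM), Crym in 2 (21.9 and 49.7 FPKM) and Twist1 in 1 (13.3 FPKM, mutant cell 66). Of these cells, only mutant cell 67, with Lgals1, lacked Dcn. Among the other small leucine-rich proteoglycans, which share the core structure of decorin, Bgn was at the level in 4 Foxi1 cells, Lum in 1 and Fmod and Ogn in 0. In Foxi1 cells minus other cells with Epcam, the difference of mean log2(FPKM + 1) was 5.68 for Dcn, rank 3 of 12414 genes compared. Dcn and the split by Foxi1 were chosen with these values known, so nothing is read from the rank of Dcn. The difference lay between -0.32 and 0.42 for the other 9, none of them called. A difference of 1 or more counted as called, and 13.7% of all genes were called higher and 3.1% lower (16.8% in either direction). The median over the 10 genes was -0.09, against 0.11 over all genes. The values other than that of Dcn depended on how cells were summarised. With the log2 of the mean FPKM + 1, Col1a1 differed by -2.33, Col3a1 by -2.19, Col1a2 by -1.89, Mmp2 by -1.61 and Crym by 1.08, all past the call, and Dcn by 8.78. The balance over all genes turned as well, from 1703 called higher and 385 lower to 1211 higher and 2571 lower. Single cells weigh heavily in that summary. Among the 97 other cells with Epcam, wild-type cell 1 had Col3a1 at 297 and Col1a1 at 300 FPKM, against means of 3.57 and 5.01 FPKM. Mmp2 reached 173 FPKM in 1 mutant cell, against a mean of 2.05 FPKM. The summary was not computed without these cells.

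Between Epcam-low and Epcam-detected cells, all 10 genes of the set were called higher, against 7.7% of the 12414 genes compared (13.9% were called lower, 21.6% in either direction). The set was chosen on this contrast, so nothing is read from that count. Col3a1 had the highest difference of all genes, 5.96 on the log2(FPKM + 1) scale, followed within the set by Crym with 5.56, Col1a2 with 5.37, Mmp2 with 5.21 and Lgals1 with 5.06. Col1a1 differed by 4.58, Il33 by 4.47 and Vcam1 by 3.55, whereas Dcn, with 1.61, and Twist1, with 1.39, ranked 341 and 504. The median of the set was 4.82, and that of all genes -0.16. Dcn depended on how cells were summarised: with the log2 of the mean FPKM + 1, which the high values of Foxi1 cells dominate, its difference was -0.47. Among mutant cells alone, 12 Epcam-low against 81 with Epcam, all 10 were again called higher, with a median of 4.90 and 7.97% of all genes called higher (21.8% in either direction).

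The other matrix genes were described from lists chosen beside the set. Over all genes, 7.7% were called higher and 13.9% lower in Epcam-low cells. The counts called lower in these lists are near that share and are no result about the lists. Of 10 further collagens, 8 were called higher in Epcam-low cells and 1 lower (median 1.73), with Col5a2 at 2.93 and Col6a1 at 2.59. Col5a2 encodes a chain that regulates fibril diameter and was at 10 FPKM or more in 7 of 13 Epcam-low and 5 of 113 Epcam-detected cells. Col11a1 was not called, at -0.60, with 4 of 13 and 43 of 113 cells at the level. Col14a1 was called lower, at -2.10, and was found in 1 of 13 Epcam-low cells against 55 of 113 with Epcam, 10 of them Foxi1 cells. Among 14 proteoglycans and elastic fibre genes compared, 11 were called higher and 0 lower (median 2.44). Biglycan, the closest relative of decorin (Bgn), was at 5.53, with 11 of 13 Epcam-low cells at the level, and Lum at 3.61. Sparc, a collagen-binding glycoprotein, differed by -0.28 and was at the level in 12 of 13 and 111 of 113 cells, so it did not separate the groups. Of 13 genes for collagen processing, 6 were called higher and 2 lower (median 0.97). The prolyl hydroxylase P4ha1 was at 2.50 and the crosslinking oxidase Loxl1 at 2.37, while Pcolce, an enhancer of procollagen cleavage, was at -1.81 and the lysyl hydroxylase Plod3 at -1.22. Pcolce was found in 91 of the 113 cells with Epcam.

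**Figure D5:**
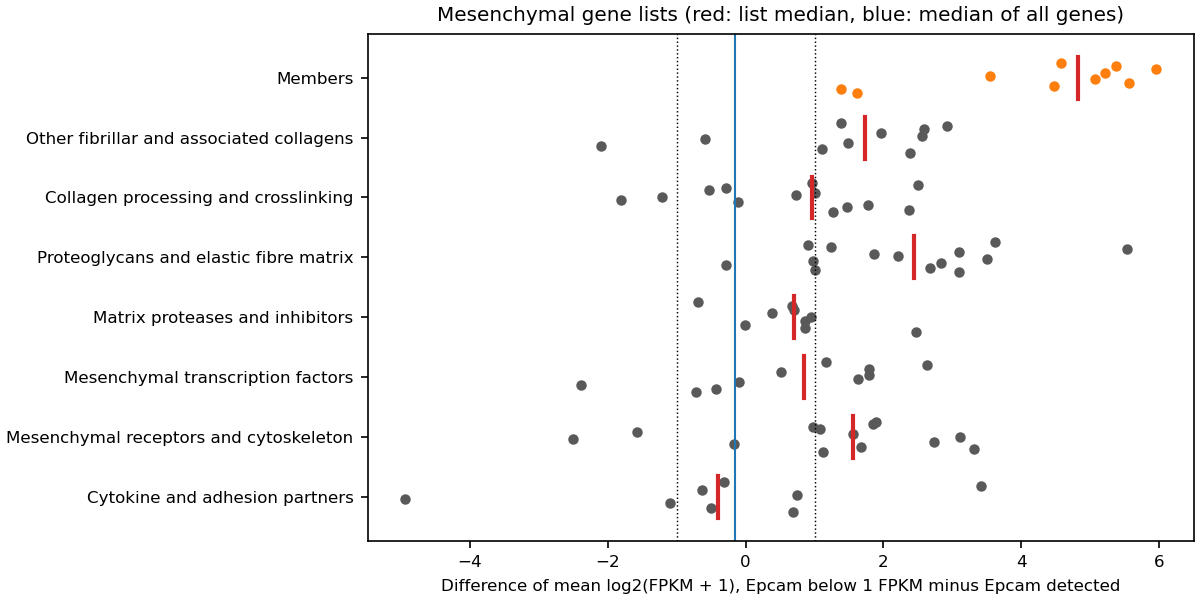
Difference of mean log2(FPKM + 1), Epcam-low minus Epcam-detected cells (horizontal axis), for each gene of the set and of 7 related lists (rows, 1 point per gene); red bars are list medians, the blue line is the median of all genes and dotted lines mark the call at 1. The set has its median at 4.82 with Dcn and Twist1 lowest, the proteoglycan list lies at 2.44, and Lgals3 is the far left point of the cytokine and adhesion list at -4.93.

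Regulators, receptors and partners of the set were less uniform. Over all genes, 7.7% were called higher and 13.9% lower. Counts of 1 of 9 or 1 of 8 higher, and of 0 of 9, 1 of 10 or 2 of 13 lower, are near these shares. Such counts are no result about the lists. Of 9 matrix proteases and inhibitors compared, 1 was called higher, the inhibitor Timp3 at 2.48, and 0 lower (median 0.70), with Mmp11 lowest at -0.70. Among mutant cells alone 4 of the 9 were called higher, against 7.97% of all genes. These were Timp3 at 2.91, Adamts1 at 1.18, Timp2 at 1.14 and Adamts9 at 1.06. Mmp14, the membrane protease that activates pro-Mmp2, was at 10 FPKM or more in 9 of 13 Epcam-low cells and 64 of 113 cells with Epcam. Of 10 mesenchymal transcription factors compared, 5 were called higher and 1 lower (median 0.84). The homeobox factor Prrx1 was at 2.63, with 6 of 13 and 1 of 113 cells at the level, and Msx1 was at -2.39, with 1 of 13 and 54 of 113. Of 13 receptors and cytoskeletal genes, 9 were called higher and 2 lower (median 1.56), with the actin-binding protein Cald1 at 3.31, the mesenchymal cadherin Cdh11 at 3.11 and the neural cadherin Cdh2 at -2.51. Of 8 cytokine and adhesion genes, 1 was called higher, the chemokine Cxcl12 at 3.41, and 2 lower (median -0.41). The galectins went opposite ways: Lgals3 was listed at 0 in all 13 Epcam-low cells and was at the level in 77 of 113 cells with Epcam, a difference of -4.93, whereas Lgals1 differed by 5.06.

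The genes most like the set were named by Pearson correlation of log2(FPKM + 1) with its mean over all 126 cells. The 10 closest that are no members were Lum (0.88), Angpt1 (0.87), Fmo1 and Fxyd5 (0.86), Cped1 (0.85), Igf1 (0.84), Scube1 (0.79), Cthrc1 and Tril (0.78) and Serpine2 (0.77). Angpt1, a ligand of the endothelial receptor Tek, was at 10 FPKM or more in 7 of 13 Epcam-low cells and 1 of 113 cells with Epcam. All 10 were at this level mostly in Epcam-low cells, 4 of 5 cells for Scube1 and 10 of 16 for Serpine2. Their values thus in part restate the grouping on which the set was chosen. Within the set, Col3a1 followed the mean most closely (0.93), then Vcam1 (0.91), Il33 (0.89) and Mmp2 (0.87). Of the 9 genes of the set at the level in enough cells to be ranked, Dcn followed it least (0.44). That mean includes each gene itself, so part of each of these values is the gene against itself. Pairs of genes of the set had a median correlation of 0.66 over all cells, 0.69 for pairs without Dcn and 0.26 for pairs with it. In the 8 Epcam-low cells with 5 or more genes the median over pairs was 0.13. The cells share a protocol and differ in listed genes, and these values are descriptions.

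Each gene had its own nearest neighbours. Vcam1 was closest to Igf1 (0.91) and Lum (0.90), Il33 to Vcam1 (0.88) and Mmp2 (0.86), Col1a2 and Col3a1 to each other (0.83), Crym to Col3a1 (0.82) and Mgp (0.76), Col1a1 to Vcam1 (0.82), and Twist1 to Cped1 and Lum (0.83). Lgals1 reached only 0.67, with Col3a1. The neighbours of Dcn were of another kind: Stap1 (0.83), Atp6v1c2 and Atp6v0d2 (0.82), and the homeobox factor Hmx2 (0.81), all at 10 FPKM or more in 0 of the 13 Epcam-low cells. Within the 113 cells with Epcam the same genes reached 0.94, 0.94, 0.93 and 0.91, followed by the insulin receptor related gene Insrr (0.90) and, further down, the chloride channel subunit Bsnd and Coch, the gene of cochlin (both 0.87).

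The genotypes could be set side by side in the cells with Epcam. Among the 27 wild-type and 70 mutant cells with Epcam and little Foxi1, the difference of mean log2(FPKM + 1), mutant minus wild type, lay between -0.30 (Il33) and 0.30 (Crym), and 0 of the 10 genes were called in either direction. Over all genes, 1.32% were called higher and 7.61% lower (8.93% in either direction), and the medians were -0.10 for the set and -0.11 for all genes. A count of 0 of 10 is near that background and is no result about the set. Wild-type cell 1 is among the 27 cells and holds all of the wild-type Vcam1, Dcn and Twist1 there, and it is the only wild-type cell of the 27 with Col3a1 or Mmp2 at the level. Without it the differences ran from -0.07 (Il33) to 0.34 (Col1a2), and 0 were called. With the log2 of the mean FPKM + 1 over all 27 and 70 cells, Col3a1 differed by -2.81, Col1a1 by -1.91, Vcam1 by -1.72, Il33 by -1.58, Col1a2 by -1.16 and Crym by 1.68, all past the call, so the set's values between genotypes depend on the summary. The negative differences also rest on wild-type cell 1, which held the highest wild-type value of Col3a1, Col1a1, Vcam1, Il33 and Col1a2 among the 27. In the other 26 wild-type cells Col3a1 and Vcam1 were at 0. The log2 of the mean was not computed without wild-type cell 1. Over all genes that summary turned 164 called higher and 945 lower into 1583 higher and 1310 lower. In the Epcam-low cells the single wild-type cell had 6 genes of the set and the 12 mutant cells a median of 8, which gives no comparison of genotypes. Dcn was at the level in 3 of 5 wild-type Foxi1 cells (60%, 14.7 to 94.7%) and 7 of 11 mutant ones (63.6%, 30.8 to 89.1%).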

How the data were processed

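The authors deposited 1 table of FPKM values for 126 cells, with a row per gene. HISAT2, HTSeq, Cufflinks, SAMtools 0.1.18 and the build mm10 are listed in the submitters' processing notes, with no role or order. What annotation, strand setting and read filters were used is not given in the sources used here. It held 48555 rows for 48490 identifiers, and the 49 identifiers with several rows were summed. No column was left unused.

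Low FPKM values showed no steps of whole reads, so the read depth is unknown. Levels were computed from the deposited FPKM as log2(FPKM + 1), and a pseudocount of 1 understates differences of scarce genes. Differences are of group means over cells, called at 1 or more, for the 12414 genes that reached 10 FPKM in 3 cells, all 10 members included. Correlations used 9843 genes at that level in at least 5 cells. Each genotype is 1 sample of cells, so there are no p-values. Shares have exact (Clopper-Pearson) 95% intervals, and a count of 0 allows 3 counts of the total. The members, lists and markers were chosen with earlier results of these data known. Named genes were the members, up to 4 genes of each list by highest and lowest difference, and the closest genes by correlation; Sparc, Mmp14, Itga4, Il1rl1, Sox10, Bsnd, Coch, Angpt1 and the markers given were named for their role. Of the list symbols, 1 (Tubb3) was not analysed here. Doublets were not called, for want of counts. Without a known strand setting, reads of Vcam1 and its antisense neighbour Gm43109, and of Col1a2 and Gm43921 or Col3a1 and Gm47302, cannot be told apart. Promoters came from a RefSeq table. Calculations used Python 3.11.15, numpy 2.4.6, pandas 2.3.3, scipy 1.17.1 and matplotlib 3.10.9, and were tested on simulated data. Alternatives changed the level of detection, Epcam and Foxi1 limits, the pseudocount, the scale of a cell, the summary, the filter and the cells used.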

Additional observations from a re-analysis of the deposited data

How the results depend on the processing

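Under the 13 alternatives (11 for Twist1), 9 of the 10 genes stayed higher in Epcam-low cells throughout. The exception was Dcn, which kept its sign in 12 of 13 and turned to -0.47 with the log2 of the mean FPKM + 1, a summary that single high cells dominate. Dcn stayed at 1 or more in 11 of 13 and Twist1 in 10 of 11 (0.38 to 2.78). In Foxi1 cells, Dcn stayed at 3.65 or more, but the log2 of the mean carried Col1a1, Col1a2, Col3a1, Mmp2 and Crym past the call, and Il33 kept its sign in 8 of 13. Between genotypes that summary carried 6 genes past it. Limits of 10 FPKM for Epcam and 1 FPKM for Foxi1 moved no cell. Leaving out cells above 6000 listed genes, or keeping cells with 3000 to 5000, left 0% of wild-type and 0% of Epcam-detected cells with 5 or more genes, since both alternatives drop wild-type cells 1 and 7.

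The numbers of genes called over the whole table moved by more than 1.5 times. In Epcam-low against Epcam-detected cells they were 956 higher and 1723 lower (mutant alone 990 and 1722), in mutant against wild type 164 and 945, and in Foxi1 cells 1703 and 385. A pseudocount of 0.1 gave 1943 and 3048 (mutant alone 1913 and 3053), 542 and 2196, and 3338 and 895. A pseudocount of 10 gave 192 and 529 (204 and 510), 18 and 168, and 379 and 95. The log2 of the mean FPKM + 1 gave 1669 and 4036 (1761 and 4167), 1583 and 1310 in mutant cells, and 1211 and 2571 in Foxi1 cells, so the side with more calls turned in both. Rescaling each cell to 1000000 gave 1623 and 1967 (1651 and 1970), 316 and 1115, and 1804 and 615. Cells with 3000 to 5000 listed genes gave 1617 and 1587 (1657 and 1558), 559 and 1266, and 1774 and 1371. For these counts the cause was not tested. With Spearman correlation, 4 of the 10 genes closest to the set were shared.

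Chosen after seeing the data were limits of 4 or 7 members, Atp6v1c2 in place of Foxi1, leaving out the cell with an FPKM sum under 100000, and leaving out wild-type cell 1. Atp6v1c2 gave Dcn in 83.3% of cells (3 of 3 wild type, 7 of 9 mutant). Without the cell of low FPKM sum, 66.7% of Epcam-low cells had 5 or more genes, and 1281 genes were called higher and 1541 lower. Without wild-type cell 1, 0% of cells with Epcam had 5 or more genes. No paired analysis was possible because no animal is named and each genotype is 1 sample of cells. Read depth is unknown, so a value of 0 was read as not detected.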
